A study of Mus musculus with 6 samples.

Results

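The megalin-cubilin protein uptake machinery was described through 10 genes, taken by symbol from the 19176 rows of the expression table: Lrp2, Cubn, Amn, Lrpap1, Dab2, Myo6, Ocrl, Clcn5, Rab11a and Fcgrt. All 10 were in the table. Renal cortex came from wild-type male young adult C57BL/6J mice, and all 6 libraries carried unilateral ischemia-reperfusion injury (UIRI), with the left renal pedicle clamped and the right kidney removed the day before collection. The UIRI group (n = 3) received vehicle and the UIRI + BA group (n = 3) received bruceine A (BA), a quassinoid that the labels spell Brucine A, by daily intraperitoneal injection at 1 mg/kg, and tissue was collected on day 14. Healthy or sham cortex was not analysed here. The values therefore show how BA-treated injured kidneys differed from vehicle-treated injured kidneys, not how either differed from an uninjured kidney.

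Megalin (Lrp2) and cubilin (Cubn) are giant receptors of the brush border of proximal tubule cells, where they capture albumin, vitamin-binding proteins and hormones from the glomerular filtrate. Cubilin has no transmembrane segment and reaches the membrane with amnionless (Amn). The loaded receptors enter by clathrin-coated pits, release their cargo in acidified endosomes and return to the surface, and the cargo goes on to lysosomes or is carried across the cell. Inherited loss of these genes or of their endosomal partners can give proteinuria, as in Donnai-Barrow syndrome (LRP2), Imerslund-Gräsbeck syndrome (CUBN, AMN), Dent disease (CLCN5) and Lowe syndrome (OCRL).

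The deposited values are normalized counts, that is, reads on a gene divided by a size factor of the library. They corresponded to between 16510720 and 38124164 reads on genes per library, with UIRI replicate 3 the deepest, and the members had between 428 and 15380 reads in any library. Replicates were from separate animals. UIRI replicate 3 stood apart from the other UIRI libraries in several members, among them Lrp2, Cubn, Dab2, Myo6 and Clcn5. For members and named endocytic and ligand genes, calls at an adjusted p below 0.05 that change without UIRI replicate 3 are given both ways. Without it, limma had 13.7% of all rows higher and 11.5% lower at an unadjusted p below 0.05. A log2 fold change is UIRI + BA minus UIRI on the scale of log2(normalized count + 1), and adjusted p-values are Benjamini-Hochberg values of limma over all 19176 rows.

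The transcripts of the large receptors were higher with BA. Lrp2 was 1.71-fold and Cubn 1.64-fold higher, and in both genes the lowest UIRI + BA library lay above the highest UIRI library. The remaining 8 members differed by less than 1.3-fold. At an adjusted p below 0.05, limma called 0 of the 10 members, against 0% of all rows, and edgeR's quasi-likelihood test also called 0. At an unadjusted p below 0.05, 2 of 10 members were higher (background 5.67% of all rows) and 0 were lower (background 4.61%). The groups did not overlap in 4 members, of which 3 were higher (Lrp2, Cubn, Lrpap1; background 7.45%) and 1 was lower (Ocrl; background 6.96%).

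**Figure D1:**
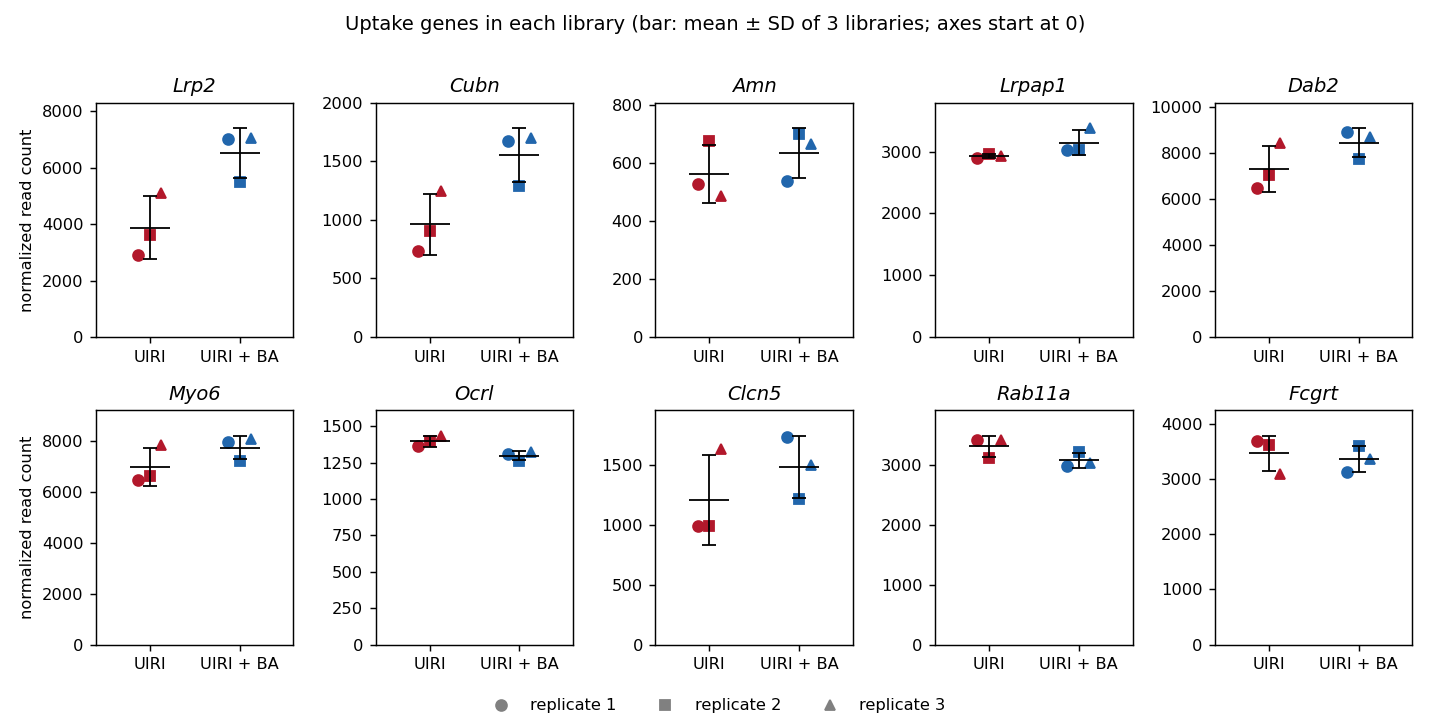
Normalized count (vertical axis, linear from 0) of each of the 10 members in the 3 UIRI and 3 UIRI + BA libraries; points are libraries, and bars give the mean with SD (n = 3). Lrp2 and Cubn show UIRI replicate 3 as the highest UIRI library and every UIRI + BA library above it, while the groups of Amn, Dab2, Myo6, Clcn5, Rab11a and Fcgrt overlap.

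Promoter windows of the receptor genes are shown because Lrp2 and Cubn varied together across the libraries and Amn did not. Each window runs from 250 bases before to 50 bases after the RefSeq start of the gene on GRCm38.p6, 5′ to 3′ on the gene's strand. Capitals mark matches to 6 short motifs searched on both strands. They were GTTAAT as a core of the HNF1 site, AGGTCA as an element bound by nuclear receptors, TATAAA as the TATA box, then CCAAT as the CCAAT box, GGGCGG as the GC box and lastly CACGTG as an E-box. No pair of these motifs overlapped in the windows printed. The windows lie at chr2:69585980-69586279 (minus strand) for Lrp2, chr2:13491827-13492126 (minus strand) for Cubn and chr12:111270846-111271145 (plus strand) for Amn.
Lrp2: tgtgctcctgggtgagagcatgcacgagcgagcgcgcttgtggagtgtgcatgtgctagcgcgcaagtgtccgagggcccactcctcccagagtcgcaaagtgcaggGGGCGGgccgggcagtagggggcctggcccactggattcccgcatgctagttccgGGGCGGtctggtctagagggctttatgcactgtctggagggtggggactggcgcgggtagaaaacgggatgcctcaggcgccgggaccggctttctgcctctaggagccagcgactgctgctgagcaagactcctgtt
Cubn: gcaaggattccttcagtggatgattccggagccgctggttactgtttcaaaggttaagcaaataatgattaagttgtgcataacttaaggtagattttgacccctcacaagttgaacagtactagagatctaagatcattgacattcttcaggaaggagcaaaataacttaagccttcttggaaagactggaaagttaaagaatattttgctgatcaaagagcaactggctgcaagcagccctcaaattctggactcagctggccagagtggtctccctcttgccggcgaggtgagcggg
Amn: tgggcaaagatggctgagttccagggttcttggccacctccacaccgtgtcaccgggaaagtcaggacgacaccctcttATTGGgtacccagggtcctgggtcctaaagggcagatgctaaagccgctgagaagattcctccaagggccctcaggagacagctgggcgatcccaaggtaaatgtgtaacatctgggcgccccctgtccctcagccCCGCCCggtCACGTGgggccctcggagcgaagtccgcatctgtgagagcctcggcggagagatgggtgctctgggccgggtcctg
The Lrp2 window had a GC content of 65.0% with 20 CpG dinucleotides and held 2 GC boxes, whose first bases lie at -143 and -88 from the gene's start. The Cubn window had a GC content of 44.33% with 5 CpG dinucleotides and matched none of the 6 motifs. The Amn window had a GC content of 62.33% with 15 CpG dinucleotides, a GC box and a CCAAT box on the reverse strand, and a CACGTG. Over all 32851 mouse promoter windows the median GC content was 52.67% and the median number of CpG dinucleotides was 7. Thus Lrp2 and Cubn, whose transcripts tracked each other most closely, lay on opposite sides of the median in both measures.

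Of the 12 windows of the 10 members, 7 held a GC box (Lrp2, Amn, Lrpap1, Myo6, Ocrl, Rab11a and 1 of the Clcn5 windows), against 35.66% of all windows. CCAAT was found in 3 member windows (Amn, Myo6, Rab11a) against 37.41% of all windows. GTTAAT was found in 1 (Dab2) against 7.099%, TATAAA in 1 (a Clcn5 window) against 13.62%, CACGTG in 1 (Amn) against 7.15%, and AGGTCA in 0 against 16.26%. These are matches of letters in a fixed window and not measured binding sites.

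Megalin, the main scavenger receptor of the filtrate, is encoded at chr2:69424340-69586065 (minus strand, GRCm38). In order of replicate number, Lrp2 had 2912, 3608 and 5119 normalized counts with UIRI and 7005, 5484 and 7057 with UIRI + BA. The groups did not overlap, although UIRI replicate 3 lay close to UIRI + BA replicate 2. The means were 3880 ± 1129 and 6515 ± 894 (SD, n = 3), and the log2 fold change was 0.78 (SE 0.19, 95% interval 0.35 to 1.20; limma adjusted p = 0.263). In bulk cortex, a larger share of proximal tubule cells with BA and more Lrp2 RNA per cell with BA cannot be told apart.

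Cubilin, the peripheral receptor for intrinsic factor-vitamin B12, albumin and transferrin, is encoded on the same strand at chr2:13276338-13491813. Cubn gave 734, 908 and 1246 normalized counts with UIRI and 1675, 1288 and 1702 with UIRI + BA. As for Lrp2, UIRI replicate 3 and UIRI + BA replicate 2 were the libraries nearest to the other group, and the groups did not overlap. The means were 963 ± 261 and 1555 ± 232, with a log2 fold change of 0.71 (SE 0.18, 95% interval 0.30 to 1.13; limma adjusted p = 0.291). An opposite-strand transcript within Cubn, Gm13270, had a mean of 12.7 normalized counts.

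Whether the receptors passed the adjusted threshold depended on the method and on 1 library. DESeq2 on the recovered reads called both, with adjusted p = 0.00751 for Lrp2 and 0.0194 for Cubn, where it called 1.14% of its 14340 tested genes as higher. edgeR gave adjusted p = 0.308 and 0.309. Without UIRI replicate 3, limma gave a log2 fold change of 1.00 for Lrp2 (adjusted p = 0.00818) and 0.92 for Cubn (adjusted p = 0.0125), with 3.22% of all rows called higher. Clcn5 then passed as well, at 0.57 (adjusted p = 0.0411). The groups then did not overlap in 8 of 10 members, against 45.4% of all rows, and without UIRI + BA replicate 2 in 7, against 25.3%. Both receptors had an unadjusted p below 0.05 in 14 of 14 alternatives.

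**Figure D2:**
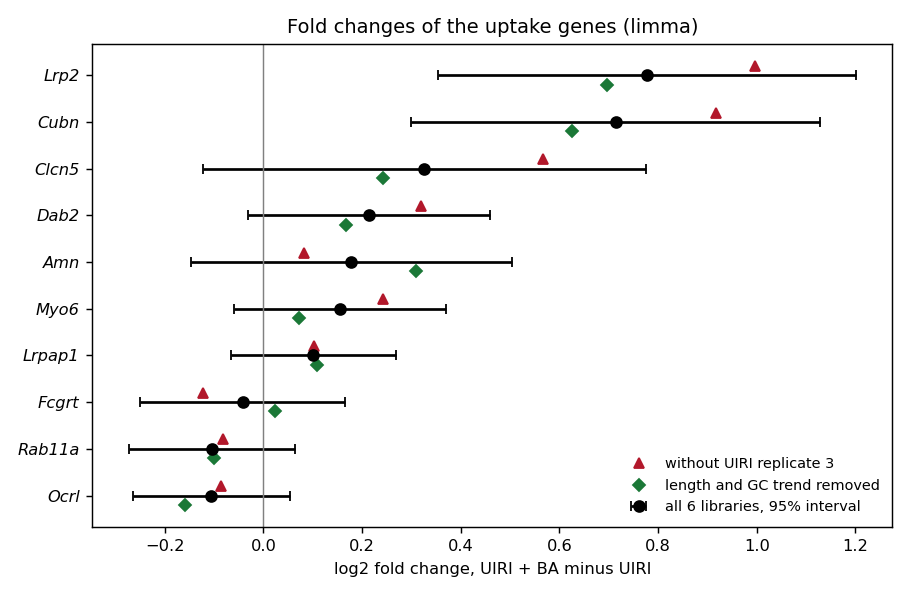
Log2 fold change (UIRI + BA minus UIRI, log2 of normalized count + 1) on the horizontal axis for each member, with black points and bars for limma's estimate and 95% interval over all 6 libraries (n = 3 per group), red triangles for the fit without UIRI replicate 3 and green diamonds for the fit with the length and GC trend removed. The intervals of Lrp2 (0.35 to 1.20) and Cubn (0.30 to 1.13) lie above 0, and those of the 8 others include 0.

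The ratio of Lrp2 to Cubn was almost the same in every library. It was 3.97, 3.98 and 4.11 with UIRI and 4.18, 4.26 and 4.15 with UIRI + BA, so the highest was 1.07 times the lowest, although each gene varied by more than that within either group. The ratio was higher in all UIRI + BA libraries, by 0.06 on the log2 scale (exact two-sided permutation p = 0.1, the smallest that 3 against 3 allows; adjusted p = 0.2 over 6 ratios, chosen after the values were seen). The ratio of Cubn to Amn, by contrast, was 1.40, 1.35 and 2.56 with UIRI and 3.12, 1.84 and 2.56 with UIRI + BA. Its coefficient of variation over the 6 libraries was 33.7%, against 2.82% for the ratio of Lrp2 to Cubn.

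Among 12641 genes with a mean of at least 100 normalized counts, Cubn was the gene whose pattern over the 6 libraries was nearest to that of Lrp2, and Lrp2 was the nearest to Cubn. Nearness was the root mean square difference of log2 values after each gene was centred on its own mean, and it was 0.04 for this pair, where Lrp2 itself deviated from its mean by 0.47. The next genes were Cyp2j11, a cytochrome P450 (0.08 from Lrp2 and 0.06 from Cubn), Gm37824 for Lrp2 (0.08), and Pdzk1, a scaffold protein of the brush border, for Cubn (0.07). Amn ranked 6760 from Cubn. When each library was left out in turn, Cubn ranked 1 from Lrp2 each time and Lrp2 ranked 1 or 2 from Cubn. After centring within each group the ranks were 1 and 2, within the UIRI libraries alone 4 and 7, and within the UIRI + BA libraries alone 11 and 4. These ranks describe likeness over 6 libraries that differ in depth and in the levels of cell type markers, and carry no test.

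**Figure D3:**
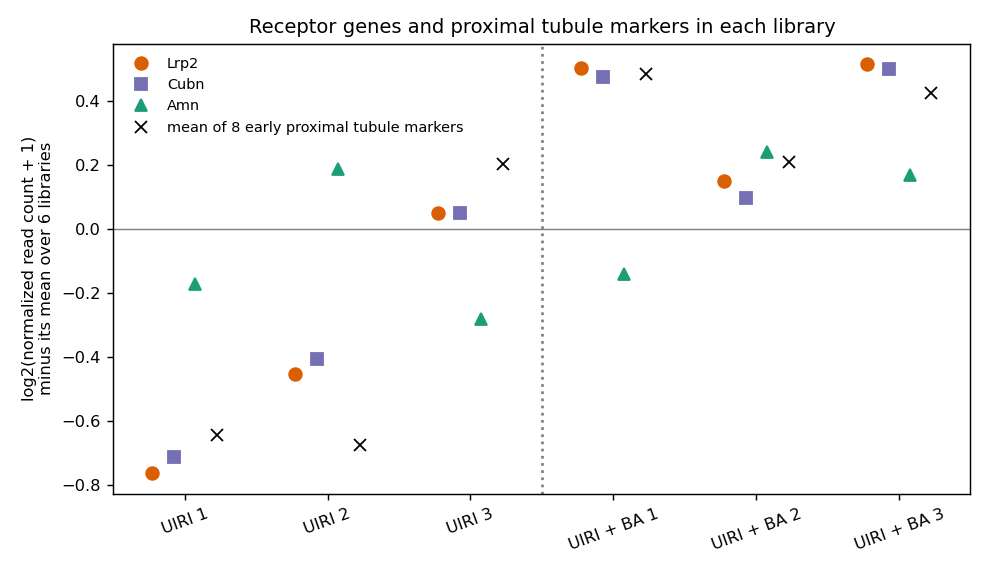
Log2(normalized count + 1) of Lrp2, Cubn and Amn minus its mean over the libraries (vertical axis) in each of the 6 libraries (horizontal axis), with crosses for the mean of 8 early proximal tubule markers. Lrp2 and Cubn rise and fall together, highest in UIRI + BA replicates 1 and 3, whereas Amn is highest in UIRI + BA replicate 2 and UIRI replicate 2.

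Amnionless, the membrane anchor of cubilin, is encoded at chr12:111271095-111276426 (plus strand). Amn gave 526, 674 and 486 normalized counts with UIRI and 536, 700 and 666 with UIRI + BA. The groups overlapped, and UIRI replicate 3, the highest UIRI library for Lrp2 and Cubn, was the lowest for Amn. The means were 562 ± 98.8 and 634 ± 86.4, with a log2 fold change of 0.18 (SE 0.14, 95% interval -0.15 to 0.50; limma adjusted p = 0.670). The interval reaches into those of Lrp2 and Cubn, and the ratio of Cubn to Amn gave an exact permutation p of 0.3 between groups.

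The receptor genes differ in length, and transcript length moved with the libraries. The longest annotated transcript has 15460 bases for Lrp2, 11262 for Cubn and 1701 for Amn. Genes over 10 kb (378 genes) deviated from their own means by a median of -0.11, -0.07 and 0.09 with UIRI and 0.14, -0.05 and 0.02 with UIRI + BA. Genes under 1.5 kb (2735 genes) deviated the other way, by 0.12, 0.09 and -0.07 with UIRI and -0.12, 0.02 and 0.00 with UIRI + BA. Amn itself falls in the class of 1.5 to 3 kb (5333 genes), which deviated less. The medians of that class were 0.05, 0.03 and -0.04 with UIRI and -0.05, 0.02 and 0.00 with UIRI + BA. UIRI replicate 3 thus differed from the other UIRI libraries in the same direction for Lrp2, Cubn and long transcripts, and in the opposite direction for Amn and short transcripts. The median log2 fold change was 0.07 in the longest and -0.08 in the shortest class.

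With the trend on length and GC content removed in each library, an alternative added after the data were seen, Lrp2 kept a log2 fold change of 0.70 (limma adjusted p = 0.155) and Cubn of 0.63 (limma adjusted p = 0.157). Amn moved to 0.31 (limma adjusted p = 0.312), and its groups no longer overlapped, while those of Lrpap1 now did. Ocrl stood at -0.16 (limma adjusted p = 0.332). In this fit 3 of 10 members were higher and 1 was lower at an unadjusted p below 0.05, against 7.36% and 5.65% of 16988 genes, and 0 passed after adjustment. Cubn and Lrp2 stayed near each other, ranking 3 from Lrp2 and 2 from Cubn, and Amn came to rank 489 from Cubn.

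**Figure D4:**
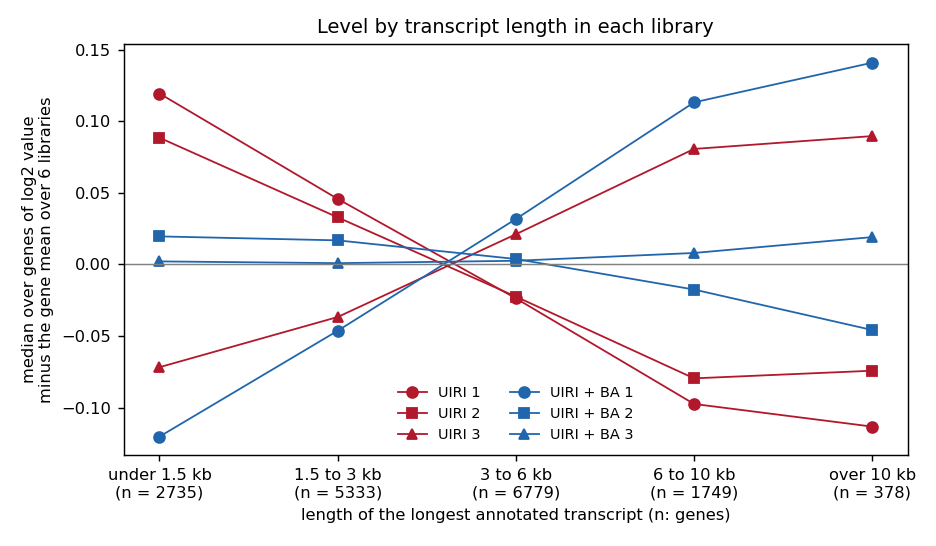
Median deviation of genes from their own mean (log2 of normalized count + 1, vertical axis) by class of longest transcript (horizontal axis), with 1 line per library. UIRI replicates 1 and 2 fall from 0.12 and 0.09 in the shortest class to -0.11 and -0.07 in the longest, whereas UIRI replicate 3 and UIRI + BA replicate 1 run the other way.

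Lrpap1 encodes the receptor-associated protein, the chaperone that keeps megalin from binding ligands before it leaves the endoplasmic reticulum. It gave 2899, 2958 and 2933 normalized counts with UIRI and 3032, 3025 and 3385 with UIRI + BA. The groups did not overlap, but they lay close together, and UIRI + BA replicate 3 alone was well above the rest. The log2 fold change was 0.10 (SE 0.07; limma adjusted p = 0.638). The number of Lrp2 reads per Lrpap1 read was 1.00, 1.22 and 1.75 with UIRI and 2.31, 1.81 and 2.08 with UIRI + BA, higher in every UIRI + BA library (exact permutation p = 0.1, adjusted p = 0.2).

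Dab2, the clathrin adaptor that binds the cytoplasmic tail of megalin, overlapped between the groups. It gave 6490, 7053 and 8423 with UIRI and 8936, 7738 and 8708 with UIRI + BA. UIRI replicate 3 lay within the UIRI + BA range, and the log2 fold change was 0.21 (SE 0.11; limma adjusted p = 0.528). Myo6, the minus-end-directed myosin that Dab2 links to endocytic vesicles, followed the same order of libraries for UIRI, with 6455, 6614 and 7820, and gave 7935, 7199 and 8076 with UIRI + BA. Its groups overlapped through UIRI replicate 3, and its log2 fold change was 0.16 (SE 0.09; limma adjusted p = 0.582). Without UIRI replicate 3 the log2 fold changes were 0.32 for Dab2 (limma adjusted p = 0.0614) and 0.24 for Myo6 (limma adjusted p = 0.0946). Myo6 ranked 70 of 12641 genes in nearness to Dab2, and the nearest were Poglut2 (0.03), Golga1 (0.03) and Tgfbrap1 (0.03). The ratio of Lrp2 to Dab2 was 0.449, 0.512 and 0.608 with UIRI and 0.784, 0.709 and 0.810 with UIRI + BA (exact permutation p = 0.1, adjusted p = 0.2).

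Dab2 is also expressed in macrophages and fibroblasts, so the markers of these cells are given beside it. All 6 macrophage markers were lower with BA, 1 of them at an unadjusted p below 0.05 (background 4.61%). Their mean log2 level was 12.02 to 12.41 with UIRI and 11.92 to 12.07 with UIRI + BA. All 6 fibroblast markers were lower, 5 at an unadjusted p below 0.05 (background 4.61%), with a mean log2 level of 13.49 to 13.67 and 13.09 to 13.41. None of these 12 markers was at 0 in any library. Their part in the values of Dab2 was not tested.

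The endosomal members had log2 fold changes of both signs, and the 95% interval of each included 0. Clcn5, the chloride-proton exchanger of early endosomes, gave 991, 992 and 1635 normalized counts with UIRI and 1736, 1218 and 1501 with UIRI + BA. UIRI replicate 3 was far above the other UIRI libraries and within the UIRI + BA range, so that the groups overlapped. The log2 fold change was 0.33 (SE 0.20, 95% interval -0.12 to 0.78; limma adjusted p = 0.582), and without UIRI replicate 3 it passed as given above.

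Ocrl, the inositol polyphosphate 5-phosphatase of clathrin-coated and endosomal membranes, was the member whose UIRI + BA values all lay below the UIRI values. It gave 1363, 1397 and 1438 with UIRI and 1313, 1263 and 1324 with UIRI + BA. The gap between the groups was narrow. The means were 1399 ± 37.4 and 1300.1 ± 32.4, with a log2 fold change of -0.11 (SE 0.07; limma adjusted p = 0.611). Rab11a, the GTPase of recycling endosomes, gave 3410, 3109 and 3418 with UIRI and 2984, 3221 and 3033 with UIRI + BA. UIRI replicate 2 lay below UIRI + BA replicate 2, and the log2 fold change was -0.10 (SE 0.07; limma adjusted p = 0.629).

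Fcgrt, the neonatal Fc receptor that returns albumin and IgG from endosomes, had interleaved groups. It gave 3685, 3626 and 3096 with UIRI and 3127, 3598 and 3371 with UIRI + BA, and every UIRI + BA value lay within the UIRI range. The log2 fold change was -0.04 (SE 0.09, 95% interval -0.25 to 0.17; limma adjusted p = 0.881), and its sign turned under some settings. Without UIRI replicate 3 it was -0.12 (limma adjusted p = 0.353). Every UIRI + BA value then lay below the UIRI values, where 45.4% of all rows did not overlap. The genes nearest to Fcgrt in pattern were Pelp1 (0.01), Nap1l4 (0.01) and Mmrn2 (0.02), an endothelial matrix protein. Fcgrt is expressed in endothelium too, whose 6 markers had a median log2 fold change of -0.01.

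Per kilobase of the longest transcript, the order of the members' levels was led by Fcgrt and Dab2 and closed by Cubn. With UIRI the levels were 1960 ± 183 normalized counts per kb for Fcgrt, 1570 ± 213 for Dab2, 1418 ± 75.5 for Rab11a, 983 ± 9.94 for Lrpap1 and 878 ± 94.1 for Myo6. Then came Amn at 330 ± 58.1, Ocrl at 266 ± 7.12, Lrp2 at 251 ± 73.0, Clcn5 at 144 ± 44.3 and Cubn at 85.5 ± 23.1. The ranges of mean ± SD of neighbours in this order overlapped, except between Rab11a and Lrpap1, between Lrpap1 and Myo6, which just missed, and between Myo6 and Amn. With UIRI + BA, Lrp2 stood at 421 ± 57.8, above Amn at 373 ± 50.8, with overlapping SDs, and Ocrl at 247 ± 6.17, and Cubn remained last at 138 ± 20.6. These levels depend on the transcript taken for the length.

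Beyond the members, 29 genes of clathrin coats, early and recycling endosomes and endosomal ion transport were looked at, and all 29 were in the table. Of these, 17 had a positive and 12 a negative log2 fold change, and the median was 0.02 (all rows -0.01). An unadjusted p below 0.05 was reached by 2 that were higher (background 5.67%) and 0 that were lower (background 4.61%), a share near the background, and 0 passed after adjustment in limma. Rab11fip3, a Rab11 effector of recycling endosomes, gave 2088, 2307 and 2399 normalized counts with UIRI and 3223, 2991 and 3262 with UIRI + BA. Its groups were well apart, with a log2 fold change of 0.48 (SE 0.08; limma adjusted p = 0.225). DESeq2 called it (adjusted p = 0.000940), as did limma without UIRI replicate 3 (adjusted p = 0.0122), and its unadjusted p was below 0.05 in 14 of 14 alternatives.

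Slc9a3, the sodium-proton exchanger of brush border and endosomes, gave 355, 422 and 592 with UIRI and 661, 496 and 663 with UIRI + BA. The groups overlapped through UIRI replicate 3 and UIRI + BA replicate 2, the same libraries that lay closest for Lrp2. The log2 fold change was 0.43 (SE 0.19; limma adjusted p = 0.484), with an unadjusted p below 0.05 in 7 of 14 alternatives, and 0.64 without UIRI replicate 3 (limma adjusted p = 0.0398). Inpp5b, the paralog of Ocrl, differed by 0.19 (SE 0.08; limma adjusted p = 0.492), higher without overlap where Ocrl was lower. Ap2s1, the small subunit of the AP2 clathrin adaptor, differed by -0.26 (SE 0.12; limma adjusted p = 0.510), with overlapping groups, and by -0.40 without UIRI replicate 3 (limma adjusted p = 0.0333), where 1.79% of all rows were called lower. The groups also did not overlap for Ap2a2 (higher), another subunit of that adaptor, and for Clta (lower), a clathrin light chain, each by less than 1.1-fold.

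Of 15 genes that encode ligands of the receptors, 13 were in the table, with a median log2 fold change of -0.12. At an unadjusted p below 0.05, 2 were higher (background 5.67%) and 1 was lower (background 4.61%), and 0 passed after adjustment in limma. Gc, the vitamin D-binding protein, gave 1476, 1906 and 1832 normalized counts with UIRI and 2112, 2548 and 2713 with UIRI + BA (log2 fold change 0.50, SE 0.12; limma adjusted p = 0.271). DESeq2 called it (adjusted p = 0.0240), as did limma without UIRI replicate 3 (adjusted p = 0.0467). Tcn2, transcobalamin, the carrier of vitamin B12 in plasma, gave 3685, 3879 and 3586 with UIRI and 4098, 4417 and 4586 with UIRI + BA (0.23, SE 0.08; limma adjusted p = 0.385). Both were higher without overlap.

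Lcn2, the iron-siderophore binding protein that megalin clears and that injured tubules make, was the only ligand lower at an unadjusted p below 0.05. A negative log2 fold change was found in 8 of the 13 ligands. Of 6 genes of injured tubules looked at, 5 had a positive log2 fold change and only Lcn2 a negative one. Lcn2 gave 5260, 4687 and 4507 with UIRI and 3137, 3469 and 3539 with UIRI + BA, without overlap, and a log2 fold change of -0.51 (SE 0.09; limma adjusted p = 0.225). DESeq2 called it (adjusted p = 0.000765), as did limma without UIRI replicate 3 (adjusted p = 0.0125). Mt1, metallothionein 1, differed by -0.17 (SE 0.12; limma adjusted p = 0.625) with overlapping groups. These values are transcripts made in the cortex and say nothing of filtered protein.

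Markers of nephron segments were read in the same libraries, and none of the proximal tubule, thick limb, collecting duct or podocyte markers was at 0 in any library. Their presence alone does not tell cortex from whole kidney. All 8 markers of the first proximal tubule segments were higher with BA at an unadjusted p below 0.05 (background 5.67%). Their median log2 fold change was 0.74, close to that of Lrp2 and Cubn. After adjustment, 0 passed in limma. Only 3 markers had every UIRI + BA library above every UIRI library (background 7.45%). The mean log2 level of the 8 markers was 9.52, 9.49 and 10.36 with UIRI and 10.64, 10.37 and 10.58 with UIRI + BA. UIRI replicate 3 and UIRI + BA replicate 2 were again the libraries that nearly met. The ratio of Lrp2 to Slc34a1, the phosphate transporter of these segments, was 0.378, 0.397 and 0.466 with UIRI and 0.549, 0.427 and 0.498 with UIRI + BA, with overlap (exact permutation p = 0.2, adjusted p = 0.24). The part of the tubule markers in the values of Lrp2 and Cubn was not tested.

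In the last proximal tubule segment, 3 of 5 markers were higher at an unadjusted p below 0.05 (background 5.67%, median log2 fold change 0.51). Of 6 injured tubule genes, 3 were higher (background 5.67%) and 1, Lcn2, was lower (background 4.61%) at that threshold (median 0.31). Among 6 thick limb, 7 collecting duct, 6 podocyte and 6 endothelial markers, 0 reached an unadjusted p below 0.05 in limma, with medians of 0.11, 0.18, -0.08 and -0.01. The macrophage and fibroblast medians were -0.26 and -0.32. The 6 urothelial markers had a median of -2.01 and overlapping groups, and 2 of them were at 0 in a library. Their mean log2 level was 4.06, 3.96 and 6.02 with UIRI and 1.64, 1.64 and 5.19 with UIRI + BA. It was thus highest in replicate 3 of each group, and the reason was not tested.

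**Figure D5:**
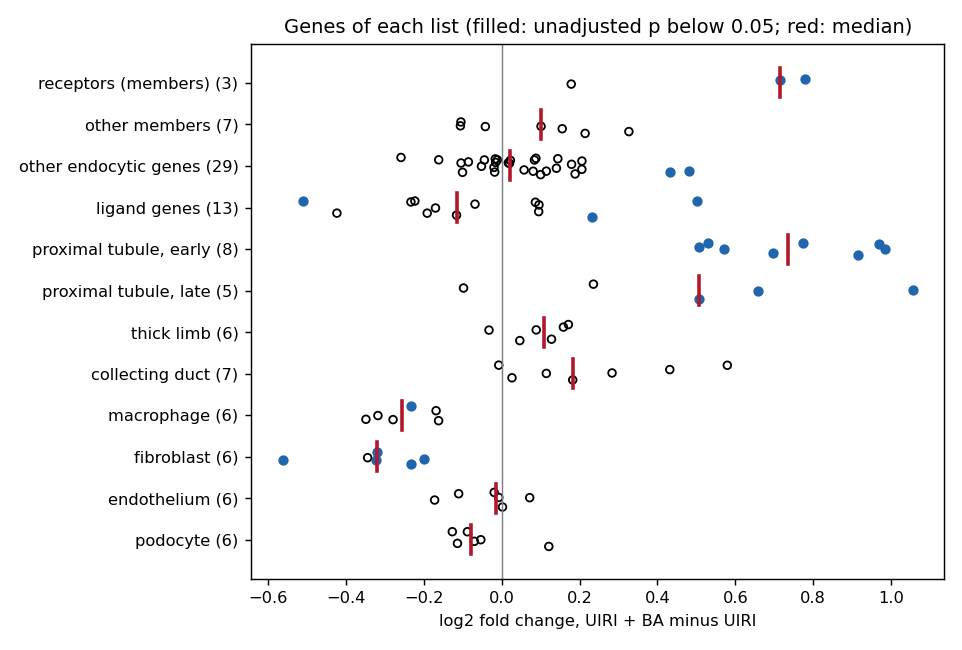
Log2 fold change (UIRI + BA minus UIRI, horizontal axis) of each gene in the members, the endocytic genes, the ligands and 8 marker lists; filled points had an unadjusted limma p below 0.05, and red bars mark each list's median. The median of the 8 early proximal tubule markers is 0.74 and that of the 29 endocytic genes is 0.02.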

How the data were processed

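The 6 renal cortex libraries were grouped by their labels. According to the methods, the authors aligned filtered reads with HISAT2 and counted them by gene with FeatureCounts; build and annotation are not given in the sources used here. Per gene, the authors deposited a signal for each library, the count after division by the library's size factor, and 100% of values were whole multiples of the step of 1 read (tolerance 0.001 reads). The deposited log2 fold changes, p-values and adjusted p-values, and the enrichment tables with the counts and the ratio of genes per term, are the authors' own comparisons and were not used. No column of library values was left unused.

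The members and gene lists were chosen with earlier results of these data known. limma 3.58.1 (R 4.3.3) was fitted to log2(value + 1) of all 19176 rows with an intensity trend and no covariate. Because the values are normalized, the count tests named in the design were alternatives: DESeq2 1.42.0 and edgeR 4.0.16 on the recovered reads. Over all rows limma called 0 at an adjusted p below 0.05 and 1971 at an unadjusted p below 0.05; edgeR called 0 and 1703, and DESeq2 213. Further alternatives were other scalings, pseudocounts and filters, a replicate block, each library left out, and removal of a length and GC trend. Ratios were compared with exact two-sided permutation tests (scipy 1.17.1). Positions and lengths came from GENCODE M21, matched for 98.19% of rows, and promoters from RefSeq; all 10 members matched. The scripts were tested on simulated data. Besides the members, the 4 genes with the smallest limma p of the endocytic and of the ligand list were named (mean at least 10; a further list that the rule covers is not reported here), with the 3 nearest in pattern to Lrp2, Cubn, Amn, Dab2 and Fcgrt (mean at least 100). Slc34a1, Gm13270, Ap2a2 and Clta were named after their values were seen. Whether reads were counted by strand is not stated, so reads of Cubn and Gm13270 could be exchanged.

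Every member had at least 428 reads per library, and replicates differed by more than counting error (chi-square per gene 5.11 to 31.4).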

Additional observations from a re-analysis of the deposited data

How the results depend on the processing

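Of 140 alternative values for single members, 131 kept direction and side of the unadjusted threshold, 6 passed it newly and 3 turned sign, all in Fcgrt: 0.023 with the length and GC trend removed, and a range of -0.12 to 0.010 when libraries were left out. The number of members with an adjusted p below 0.05 was 0 in limma, 2 with DESeq2 and 0 to 3 with libraries left out (3 without UIRI replicate 3). At an unadjusted p below 0.05 it was 2, against 4 with the trend removed and 2 to 5 with libraries left out (5 without UIRI replicate 3, all higher, where 13.7% of all rows were higher). Members without overlap numbered 4, against 3 with upper quartile scaling, 3 with quantile normalization and 4 to 8 with libraries left out (8 without UIRI replicate 3, where 45.4% of all rows did not overlap, and 7 without UIRI + BA replicate 2, where 25.3% did not). At an unadjusted p below 0.05, the 29 endocytic genes gave 2, against 1 with upper quartile scaling, 1 with quantile normalization and 1 with edgeR. With the trend removed they gave 4, of which 3 were higher and 1 lower, against 7.36% and 5.65% of 16988 genes. With libraries left out they gave 1 to 12. Without UIRI replicate 3 there were 12, of which 9 were higher and 3 lower, against 13.7% and 11.5% of all rows. The count was 1 when any 1 of UIRI replicate 1, UIRI replicate 2, UIRI + BA replicate 1 or UIRI + BA replicate 3 was left out. The cause was not tested. The adjusted p over all alternatives ran from 0.00751 to 0.9995 for Lrp2 and from 0.0125 to 0.9995 for Cubn.

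With 3 libraries per group, the values could not settle whether the replicate numbers pair the libraries. Deviations of same-numbered libraries correlated at -0.24, 0.304 and 0.155, and those of other pairs at -0.413 to 0.235. With the replicate block, 2 members had an unadjusted p below 0.05. After adjustment 0 members passed, against 6 of all 19176 rows, with adjusted p = 0.0961 for Lrp2 and 0.115 for Cubn in limma.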

Other observations

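The genes nearest to Amn in pattern over the 6 libraries were Atxn7l2 (root mean square difference 0.05), Acat3 (0.05) and Myo15b (0.06). In each of the 3, as in Amn, UIRI replicate 3 was the lowest UIRI library and UIRI + BA replicate 1 the lowest UIRI + BA library.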
